A study of Saccharomyces cerevisiae with 21 samples.

Results

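Peroxisomes bound by a single membrane house fatty acid beta-oxidation in yeast, and the genes described here build, divide, move and regulate them. They comprise every gene of the array whose annotated symbol is PEX followed by a number, together with INP1, INP2, ANT1, TES1, LPX1, PCS60, MDH3, PIP2, OAF1 and ADR1. This rule, which uses names and no measured value, gave 35 genes of the 5449 Saccharomyces cerevisiae genes measured, 25 of them peroxins and 10 others. Each was measured by 1 probe set, and all 35 had a mean signal above the background limit of 4.84 on the log2 scale.

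RNA of budding yeast was hybridized to 21 Affymetrix arrays, 3 for each of 7 groups. In YPD, a rich medium with dextrose, cells were left as controls, heat stressed, given ISP1, or given heat stress and ISP1 together. In synthetic complete medium (SC), cells were left as controls, given myristate, or given myristate and ISP1. ISP1 is myriocin, which inhibits serine palmitoyltransferase, the entry enzyme of sphingolipid synthesis, and myristate is a saturated fatty acid. Treatments lasted 45 min, with no time stated for myristate with ISP1. For arrays 2 and 3 of that group, title and description differ in the digit that follows ISP, and groups were taken from titles. Strain, temperature, doses and vehicles are not given in the labels, and the SC label describes SC and a form of it with dextrose without saying which these cells had. The labels do not state whether the replicates of a group were grown separately. The p-values therefore cover only the spread among these arrays, possibly a technical one, and precision is limited by there being 3 per group.

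Matrix proteins are made in the cytosol and carry a targeting signal, PTS1 or PTS2, that a soluble receptor binds. The receptor docks at the peroxisomal membrane, releases its cargo inside, is ubiquitinated and is pulled back to the cytosol in a step that uses ATP. Membrane proteins enter by a separate route through Pex3 and Pex19. Yeast burns fatty acids only in peroxisomes. In cells given a fatty acid such as oleate, the heterodimer of the transcription factors Oaf1 and Pip2 switches on peroxisomal genes, while glucose represses them, in part by keeping the activator Adr1 low.

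Levels below are log2 signal. Each difference is a log2 fold change, given with its standard error (±), from 1 limma model of all 21 arrays. A gene is said to rise, fall or be called where its adjusted p, over all 5449 genes, is under 0.05. In bulk RNA, a change per cell and a change in the mix of cells cannot be told apart. Replicates correlated across genes with r of 0.993 to 0.998, and array medians lay between 10.21 and 10.33. The 3' minus 5' signal of the actin control, a sign of RNA quality, was 0.385 ± 0.019 in YPD control and 0.51 ± 0.035 with heat in the older of its 2 probe pairs (log2 ± SD, n = 3). In the newer pair it was 0.565 ± 0.04 and 0.516 ± 0.009, so the 2 actin pairs moved in opposite directions. For the control transcripts SRB4 and SPT15 both pairs were higher with heat. SRB4 went from 2.862 ± 0.024 to 3.058 ± 0.189 in the newer pair and from 2.649 ± 0.11 to 3.008 ± 0.185 in the older. SPT15 went from 1.538 ± 0.167 to 1.746 ± 0.076 and from 2.003 ± 0.179 to 2.301 ± 0.031, and in none of these 4 pairs did the heat and control arrays overlap. Between media, the newer SRB4 pair gave 2.86 ± 0.02 in YPD control and 1.78 ± 0.12 in SC control. The newer actin pair was lower in SC control too, at 0.36 ± 0.014, and so was the older, at 0.133 ± 0.015. SPT15 was not lower there, at 1.646 ± 0.098 in the newer pair and 2.008 ± 0.11 in the older. The part of RNA quality in the results was not tested.

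The widest range of any member was that of PEX18, which encodes a co-receptor that helps Pex7 bring PTS2 proteins into the peroxisome. On the 3 YPD control arrays its level was 5.02, 4.87 and 4.62, with 2 of the 3 above the background limit given above. It was 7.93, 7.51 and 7.40 with heat, 6.72, 6.43 and 6.55 with ISP1 and 8.48, 8.09 and 8.21 with both. All treated arrays in YPD lay above all control arrays, and the arrays with both treatments above those with either alone. In SC the control arrays read 5.75, 5.79 and 5.98, those with myristate 8.52, 8.79 and 8.59, and those with myristate and ISP1 8.80, 8.76 and 8.48. PEX18 rose by 2.78 ± 0.14 with heat (adjusted p = 1.62e-12), by 1.73 ± 0.14 with ISP1 and by 2.79 ± 0.14 with myristate (adjusted p = 8.14e-11). The last is a 6.92-fold rise. The YPD control mean, 4.835, is not above the background limit, so the fitted differences from it are lower limits of the change. Adding ISP1 to heat raised it further, by 0.65 ± 0.14.

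PEX21, the paralogue of PEX18, encodes the other Pex7 co-receptor and behaved differently. Its control arrays in YPD stood at 9.28, 9.58 and 9.76 and its ISP1 arrays at 10.59, 11.18 and 11.06, well apart. With heat it was at 9.38, 9.16 and 9.22, and with heat and ISP1 at 8.71, 8.70 and 8.62, the lowest of all groups. The heat and control arrays overlapped. The SC arrays read 9.18, 9.18 and 9.27 in control, 9.19, 9.12 and 9.19 with myristate and 8.98, 8.93 and 9.17 with myristate and ISP1, and the first 2 sets overlapped. ISP1 alone raised PEX21 by 1.40 ± 0.13, a 2.64-fold rise (adjusted p = 2.69e-08), whereas ISP1 added to heat lowered it by 0.58 ± 0.13 (adjusted p = 0.00192). Set against ISP1 alone, heat with ISP1 lowered it by 2.27 ± 0.13, a 4.81-fold fall. The heat difference on its own was -0.29 ± 0.13 (adjusted p = 0.043). That call was lost without control array 2 (0.101) or 3 (0.225) or heat array 2 (0.132) or 3 (0.0971). It was lost too with only the arrays compared, median centring or quantile normalization (0.0654 to 0.161). With myristate PEX21 was at -0.04 ± 0.13 (adjusted p = 0.81). Thus PEX18 was called with heat, ISP1 and myristate alike, and PEX21 reached a high level with ISP1 in unheated YPD.

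**Figure D1:**
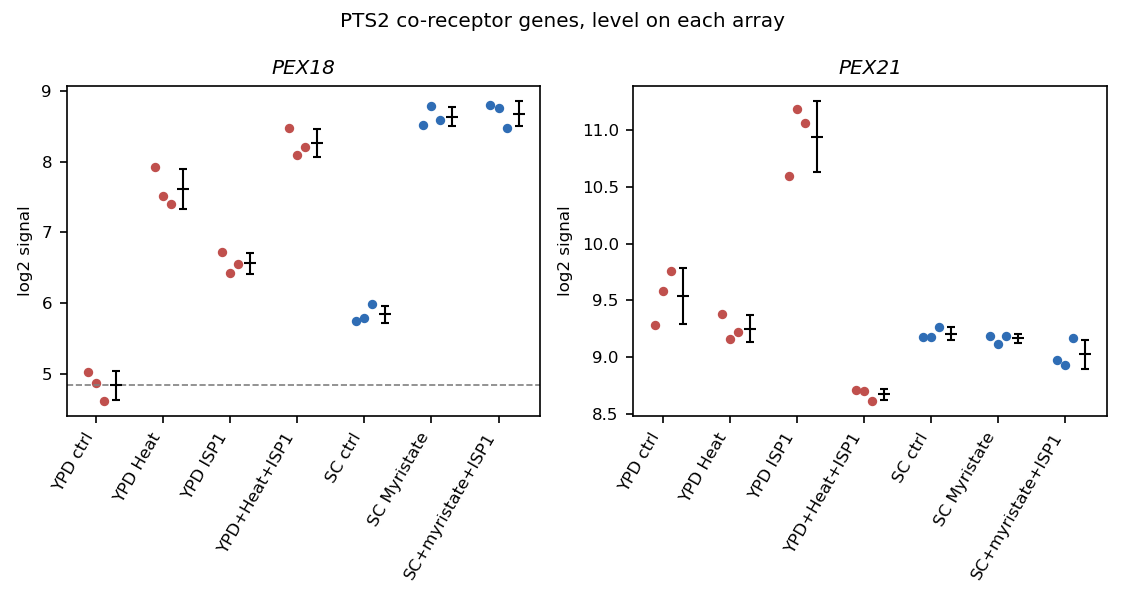
Log2 signal of PEX18 (left) and PEX21 (right) on each of the 21 arrays, by group on the horizontal axis, with YPD in red and SC in blue. Points are arrays, bars the group mean ± SD (n = 3), and the dashed line the background limit of 4.84; the PEX18 controls in YPD lie at that line, and PEX21 is highest with ISP1 in YPD.

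The PTS1 receptor gene PEX5 stood at 9.47, 9.69 and 9.51 in YPD control, 10.04, 9.75 and 9.81 with heat, 10.11, 10.28 and 10.22 with ISP1 and 10.23, 10.11 and 10.33 with both. In SC it went from 8.87, 9.22 and 9.09 to 9.86, 10.07 and 9.97 with myristate and 10.09, 10.04 and 10.02 with myristate and ISP1. It was higher on every treated array than on the control arrays of its medium. The rises were 0.30 ± 0.09 with heat, 0.64 ± 0.09 with ISP1 and 0.91 ± 0.09 with myristate. PEX7, the PTS2 receptor gene, varied little. It rose by 0.19 ± 0.06 with heat and was at -0.04 ± 0.06 with ISP1 and 0.14 ± 0.06 with myristate, where it was not called (adjusted p = 0.602 and 0.0658). Over the 7 groups its means spanned 0.31, against 3.84 for PEX18.

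Beyond the receptors, the import machinery moved by less than 1 in every comparison. Of the docking genes, PEX17 rose with heat (0.56 ± 0.10), ISP1 (0.40 ± 0.10) and myristate (0.30 ± 0.10), the last call being lost without SC control array 1 (adjusted p = 0.1) or myristate array 2 (0.0635) and with quantile normalization (0.295). PEX14, which with Pex13 forms the docking site, rose with ISP1 (0.38 ± 0.07) and was at 0.15 ± 0.07 with heat (adjusted p = 0.0574). PEX13 was at 0.25 ± 0.13 with heat and 0.07 ± 0.13 with ISP1 and was not called in either. Among the RING finger genes, whose products ubiquitinate the receptors, PEX10 rose by 0.70 ± 0.08 with heat and by 0.71 ± 0.08 when heat was added to ISP1. PEX2 rose by 0.26 ± 0.06 with heat and 0.38 ± 0.06 with ISP1. PEX8, which links the docking and RING complexes on the matrix side, rose by 0.27 ± 0.05 with heat and 0.25 ± 0.05 with myristate and was at 0.00 ± 0.05 with ISP1.

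Receptor recycling needs the ubiquitin-conjugating enzyme Pex4 on its anchor Pex22, and the ATPase Pex6 on its anchor Pex15. With heat, ISP1 and myristate the 2 anchor genes rose, and neither of the 2 catalytic genes measured did. With heat PEX15 rose by 0.58 ± 0.09 and PEX22 by 0.54 ± 0.09, while PEX6 fell by 0.33 ± 0.06 and PEX4 was at -0.05 ± 0.06 (adjusted p = 0.491). With ISP1 the anchors stood at 0.29 ± 0.09 and 0.26 ± 0.09, both called. These 2 calls were lost without YPD control array 3 (adjusted p = 0.0606 and 0.0651) or ISP1 array 2 (0.0787 and 0.105). PEX6 and PEX4 were at -0.07 ± 0.06 and 0.00 ± 0.06 with ISP1, not called. With myristate the values were 0.29 ± 0.09 for PEX15, 0.35 ± 0.09 for PEX22, -0.01 ± 0.06 for PEX6 and 0.04 ± 0.06 for PEX4. The PEX15 call there was lost without SC control array 1 (adjusted p = 0.11) or myristate array 3 (0.0716), or in a fit of the 6 arrays alone (0.078). PEX4 and PEX6 rose slightly when ISP1 was added to heat (0.17 ± 0.06 and 0.18 ± 0.06), calls lost without any 1 of several arrays, among them heat array 1 (0.106 and 0.0504) and array 3 of heat with ISP1 (0.0807 and 0.134). The difference between anchors and enzymes was not tested, since it would compare different probe sets.

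The genes for insertion of membrane proteins rose with heat. PEX3, which encodes the membrane anchor of that route, read 9.97, 9.89 and 9.89 in YPD control and 10.69, 10.59 and 10.65 with heat, sets that did not overlap. Its rise was 0.73 ± 0.05 with heat, 0.17 ± 0.05 with ISP1 and 0.20 ± 0.05 with myristate. PEX19, which encodes the soluble receptor, rose by 0.34 ± 0.12 with heat, a call lost without YPD control array 1 (adjusted p = 0.0628) or 2 (0.0938). It was at -0.14 ± 0.12 with ISP1 and -0.10 ± 0.12 with myristate and was called in neither.

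Genes of division did not move as 1 group. PEX11, whose product elongates the membrane and promotes division, stood at 10.52, 10.35 and 10.39 in YPD control and 9.81, 9.72 and 9.94 with heat, a fall of 0.60 ± 0.07. It was higher with ISP1, at 10.72, 10.79 and 10.85, and again lower with both treatments, at 10.28, 10.20 and 10.09. In SC it went from 10.66, 10.81 and 10.90 to 11.32, 11.31 and 11.35 with myristate. The ISP1 difference was 0.37 ± 0.07 without heat and 0.37 ± 0.07 with heat, and the interaction was 0.00 ± 0.10 (adjusted p = 0.989). Myristate raised it by 0.54 ± 0.07. PEX25, of the same family, fell with heat (-0.76 ± 0.06) and with ISP1 (-0.30 ± 0.06) and was at 0.10 ± 0.06 with myristate (adjusted p = 0.138). Its paralogue PEX27 was at 0.02 ± 0.14 with heat and 0.06 ± 0.14 with myristate. Its ISP1 difference of 0.34 ± 0.14 was called (adjusted p = 0.0434), but not after leaving out any 1 of the 6 arrays compared (0.0635 to 0.112) or with quantile normalization (0.0512). PEX34 was called in none of the 9 comparisons, and its group means spanned 0.11, the narrowest range of the 35 genes.

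The proteins that set peroxisome size and number, Pex28 to Pex32, act largely at the endoplasmic reticulum. PEX29 read 9.45, 9.50 and 9.21 in YPD control, 11.24, 11.06 and 11.10 with heat, 10.20, 10.01 and 10.07 with ISP1 and 11.24, 11.27 and 11.28 with both. In SC it read 9.0, 9.09 and 9.15 in control, 9.60, 9.72 and 9.69 with myristate and 9.72, 9.84 and 9.75 with myristate and ISP1. Every treated set lay above its control, and heated arrays lay above all others. PEX30, whose product shapes the membrane where peroxisomes and lipid droplets form, read 9.62, 9.56 and 9.68, 10.96, 11.02 and 11.01, 10.30, 10.02 and 10.47 and 11.03, 11.05 and 11.12 in the same order in YPD. In SC it read 9.82, 9.98 and 9.84 in control, 10.45, 10.49 and 10.33 with myristate and 10.61, 10.63 and 10.40 with myristate and ISP1. The rises with heat, ISP1 and myristate were 1.74 ± 0.07, 0.71 ± 0.07 and 0.59 ± 0.07 for PEX29, and 1.38 ± 0.09, 0.64 ± 0.09 and 0.54 ± 0.09 for PEX30.

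PEX31, a relative of PEX30, went the other way. It stood at 9.56, 9.58 and 9.43 in YPD control, 8.41, 8.69 and 8.61 with heat, 9.25, 9.24 and 8.99 with ISP1 and 8.88, 9.09 and 8.89 with both. It fell with heat (-0.95 ± 0.09, adjusted p = 1.48e-08), ISP1 (-0.36 ± 0.09) and myristate (-0.38 ± 0.09), and was the 1 member that fell with myristate. ISP1 added to heat raised it by 0.38 ± 0.09. PEX32, the third of these relatives, was at 0.16 ± 0.07 with heat, 0.07 ± 0.07 with ISP1 and 0.16 ± 0.07 with myristate. Its heat call was lost without control array 2 (adjusted p = 0.194) or heat array 1 (0.127) or 3 (0.116). Its myristate call (adjusted p = 0.0476) was lost without SC control array 1 (0.0898), 2 (0.0937) or 3 (0.0904), or myristate array 1 (0.109) or 3 (0.186). PEX28, the paralogue of PEX29, rose with ISP1 (0.39 ± 0.09) and was at 0.12 ± 0.09 with heat and 0.01 ± 0.09 with myristate. Within both of these related sets, then, 1 gene rose under all 3 treatments while a relative did not.

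Inheritance genes fell with ISP1. INP1, which keeps peroxisomes in the mother cell, was at -0.23 ± 0.07, and INP2, whose product ties them to the myosin that carries them to the bud, was at -0.36 ± 0.11. Both calls were lost without YPD control array 1 (adjusted p = 0.0713 and 0.0523) or ISP1 array 3 (0.0756 and 0.0594), and in a fit of the 6 arrays alone (0.0682 and 0.0583). Neither was called with heat (-0.15 ± 0.07 and -0.09 ± 0.11) or myristate (0.01 ± 0.07 and -0.11 ± 0.11).

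ANT1 encodes the carrier that brings ATP into the peroxisome, where it serves to activate fatty acids. Its level was 10.72, 10.72 and 10.88 in YPD control, 10.34, 10.30 and 10.37 with heat, 11.14, 11.25 and 11.22 with ISP1 and 10.22, 10.17 and 10.09 with both. These 4 sets did not overlap. In SC it was 10.32, 10.33 and 10.35 in control, 10.47, 10.48 and 10.49 with myristate and 10.47, 10.44 and 10.59 with myristate and ISP1. ANT1 fell by 0.43 ± 0.06 with heat and rose by 0.43 ± 0.06 with ISP1. Heat added to ISP1 lowered it by 1.04 ± 0.06, a 2.06-fold fall (adjusted p = 6.28e-12). ISP1 added to heat gave -0.18 ± 0.06, a call lost without heat array 3 (adjusted p = 0.0645) or heat with ISP1 array 3 (0.0918). With myristate its difference was 0.15 ± 0.06, called with all arrays, and not after leaving out SC control array 1 (0.0705) or 2 (0.0677) or any 1 of the myristate arrays (0.0542 to 0.0693).

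Of the matrix enzymes TES1, the acyl-CoA thioesterase gene, moved most. Its level was 9.26, 9.34 and 9.22 in YPD control, 10.26, 10.13 and 10.25 with heat, 10.07, 10.10 and 10.13 with ISP1 and 10.84, 10.91 and 10.92 with both. In SC it was 9.17, 9.27 and 9.32 in control, 10.81, 10.74 and 10.77 with myristate and 10.73, 10.84 and 10.85 with myristate and ISP1. In YPD all arrays with heat and ISP1 lay above those with either alone, while in SC the 2 sets with myristate overlapped. The rises were 0.94 ± 0.05 with heat, 0.83 ± 0.05 with ISP1, 0.67 ± 0.05 for ISP1 added to heat and 1.52 ± 0.05 with myristate (adjusted p = 1.09e-12). The interaction of heat and ISP1 was -0.15 ± 0.08 (adjusted p = 0.119). PCS60, an acyl-CoA synthetase family gene, rose with heat (0.58 ± 0.09), ISP1 (0.43 ± 0.09) and myristate (0.50 ± 0.09). MDH3, the peroxisomal malate dehydrogenase gene, rose likewise (0.23 ± 0.05, 0.50 ± 0.05 and 0.44 ± 0.05). The lipase gene LPX1 rose with myristate (0.36 ± 0.10) and was at 0.15 ± 0.10 with heat and -0.18 ± 0.10 with ISP1, not called in either.

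The 3 transcription factors differed in the treatments with which they were called, and differences between them were not tested. PIP2 stood at 8.92, 8.82 and 8.75 in YPD control, 9.01, 9.22 and 9.16 with heat, 9.22, 9.21 and 9.37 with ISP1 and 9.34, 9.32 and 9.51 with both. In SC it went from 8.85, 8.82 and 8.66 to 9.96, 9.79 and 9.78 with myristate and 9.89, 9.83 and 10.06 with myristate and ISP1, and these SC sets with myristate lay above every other array. Its rise was 1.07 ± 0.08 with myristate, 0.30 ± 0.08 with heat and 0.44 ± 0.08 with ISP1. OAF1, its partner, was at 10.26, 10.10 and 10.15 in YPD control, 10.77, 10.66 and 10.71 with heat, 10.19, 10.08 and 10.05 with ISP1 and 10.86, 10.86 and 10.87 with both. In SC it was at 9.73, 9.65 and 9.69, 10.07, 10.02 and 10.07 with myristate and 10.17, 10.21 and 10.15 with myristate and ISP1. Thus OAF1 rose with heat (0.55 ± 0.05) and with myristate (0.36 ± 0.05) and was at -0.07 ± 0.05 with ISP1 (adjusted p = 0.284).

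ADR1, the activator that glucose holds back, read 8.51, 7.73 and 7.93 in YPD control, 10.79, 10.26 and 10.31 with heat, 9.35, 8.67 and 8.62 with ISP1 and 11.10, 10.72 and 10.91 with both. In SC it read 9.75, 9.85 and 9.85 in control, 9.98, 9.94 and 10.08 with myristate and 10.12, 10.26 and 10.46 with myristate and ISP1. The spread was widest in YPD control and with ISP1 (SD 0.41 in each), and array 1 was the highest of its group in all 4 YPD groups. ADR1 rose by 2.40 ± 0.20 with heat, a 5.27-fold rise (adjusted p = 1.62e-09), and by 0.82 ± 0.20 with ISP1. With myristate it was at 0.18 ± 0.20 (adjusted p = 0.459), although the myristate and SC control arrays did not overlap. This difference passed in the fit of only the 6 arrays compared (adjusted p = 0.0306). ISP1 added to heat gave 0.46 ± 0.20 (adjusted p = 0.0799), which passed when the replicate number entered as a block (adjusted p = 0.0413), with array weights (0.00194) and without heat array 1 (0.0279). The SC control arrays were higher than the YPD control arrays by 1.76 ± 0.20.

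**Figure D2:**
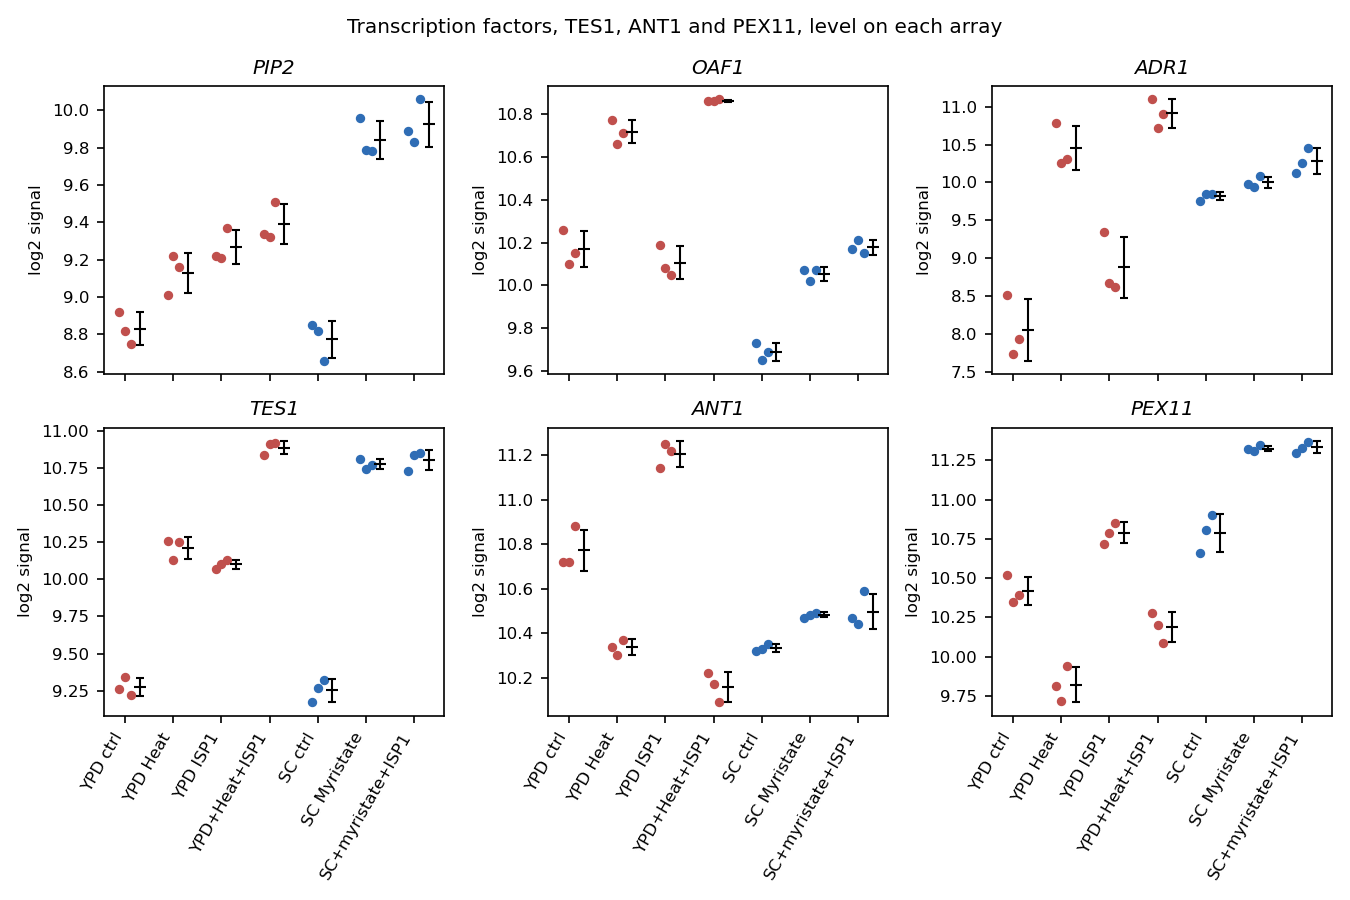
Log2 signal of PIP2, OAF1, ADR1, TES1, ANT1 and PEX11 on each of the 21 arrays, by group, with YPD in red and SC in blue; vertical axes differ between panels. Points are arrays and bars the group mean ± SD (n = 3); PIP2 is highest in the 2 groups given myristate, OAF1 and ADR1 with heat and ISP1 together, and ANT1 with ISP1 alone.

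Heated against unheated cells in YPD asked which of these genes respond to heat stress. Of the 35 members 20 rose, 6 fell and 9 were not called, where 39.8% of all genes were called higher and 40.9% lower. The members' median difference was 0.25, beside 0.00 over all genes. The largest rises were those of PEX18, ADR1, PEX29, PEX30, TES1 and PEX3, given above. The largest falls were those of PEX31, PEX25, PEX11, ANT1, PEX6 and PEX21. By role, 9 of the 14 import genes rose and 2 fell, both membrane biogenesis genes rose, and none of the 4 division genes rose while 2 fell. The members that rose or fell at least 2-fold were PEX18, ADR1, PEX29 and PEX30. These are 4 of 35, where 1488 of all 5449 genes rose or fell at least 2-fold.

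ISP1 against control in YPD asked how these genes differ in cells given ISP1 without heat. Here 20 of 35 rose, 4 fell and 11 were not called, where 27.9% of all genes were called higher and 33.2% lower. The median was 0.29 for the members and -0.04 for all genes. PEX18, PEX21, TES1, ADR1, PEX29 and PEX30 rose most, and PEX5 was close behind. The 4 falls were those of PEX31, INP2, PEX25 and INP1, and 2 were left without control array 1, without ISP1 array 3 or in a fit of the 6 arrays alone. In the import machinery 8 of 14 genes rose and none fell. Of these 24 calls 19 held under every alternative setting.

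ISP1 added to heat gave smaller changes. Of the members 11 rose and 2 fell, where 16.5% of all genes were called higher and 16.3% lower, and the largest rises were those of TES1, PEX18, PEX31, PEX11, PEX5 and PEX28. PEX5 rose by 0.36 ± 0.09 and PEX28 by 0.35 ± 0.09. The PEX28 call was lost without heat array 2 (adjusted p = 0.0562). PEX21 and ANT1 were the 2 that fell. Leaving out heat array 2 reduced the rises to 7. Leaving out array 3 of either group reduced the falls to 1. PIP2 rose by 0.26 ± 0.08, a call lost without heat array 1 (adjusted p = 0.0975) or heat with ISP1 array 3 (0.111), with only the arrays compared (0.0574) or with median centring (0.0505). OAF1 rose by 0.14 ± 0.05, a call lost without heat array 2 (0.151) or 3 (0.0877) and without any 1 array of heat with ISP1 (0.0732 to 0.0905).

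Heat was also set against no heat in cells that had ISP1 in both. There 16 members rose and 6 fell, where 40.0% of all genes were called higher and 37.2% lower. ADR1 (2.04 ± 0.20), PEX18 (1.70 ± 0.14), PEX29 (1.17 ± 0.07), PEX30 (0.80 ± 0.09), TES1 (0.79 ± 0.05) and OAF1 (0.76 ± 0.05) rose most. PEX21 and ANT1 fell most, followed by PEX11 (-0.60 ± 0.07) and PEX25 (-0.36 ± 0.06). PEX31 was at -0.20 ± 0.09 (adjusted p = 0.0478), a call lost without ISP1 array 1 (0.161) or 2 (0.155) or heat with ISP1 array 1 (0.146) or 3 (0.142). MDH3 fell by 0.18 ± 0.05. PIP2 was at 0.12 ± 0.08 (adjusted p = 0.187). The call of PEX17, at 0.22 ± 0.10 (adjusted p = 0.045), was lost with the replicate number as a block (0.0508) and without any 1 array of ISP1 or array 1 or 2 of heat with ISP1 (0.053 to 0.165).

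**Figure D3:**
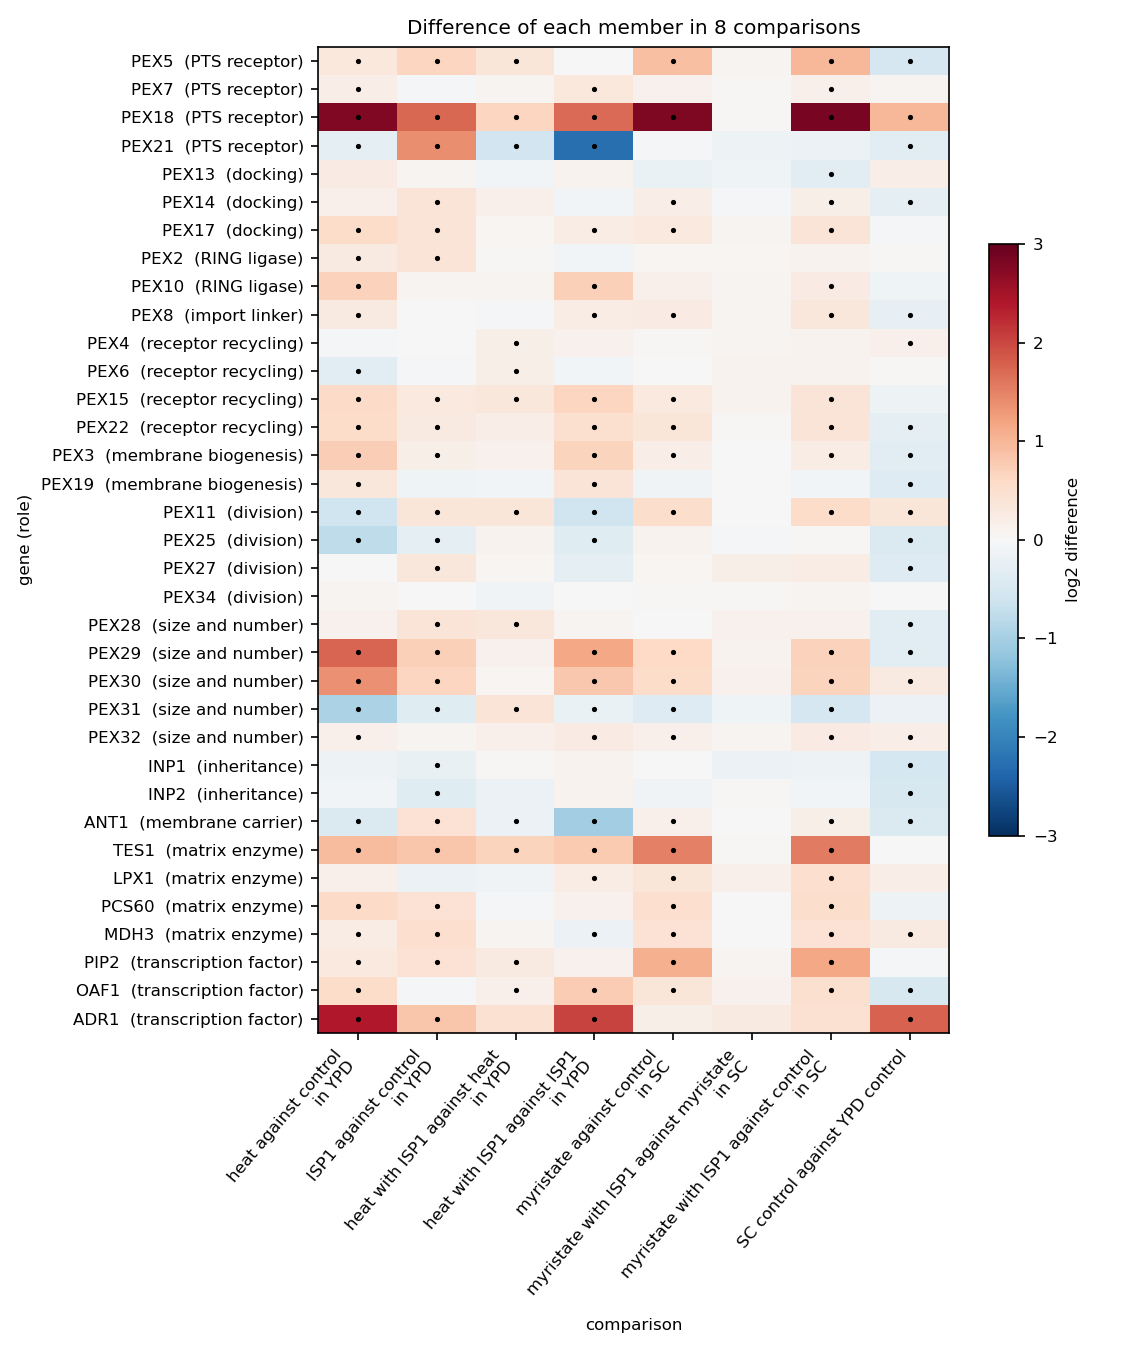
Log2 difference of the 35 genes (rows, by role) in 8 comparisons (columns), red for higher and blue for lower, with a dot where limma's adjusted p was under 0.05. PEX18 is red in 7 of the 8 columns, PEX21 is red with ISP1 and blue where heat was added to it, and the column of myristate with ISP1 against myristate has no dot.

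Whether ISP1 acted alike with and without heat was tested by the interaction, the ISP1 difference in heated cells minus that in unheated cells. It was called for 13 of 35 members, 5 positive and 8 negative, where 21.8% of all genes were called positive and 19.1% negative. With median centring 2 were positive and 11 negative. Positive calls also numbered 2 without control array 1 or heat with ISP1 array 3, and 3 without heat array 2 or 3 or ISP1 array 2 or 3. PEX21 had the largest value, -1.98 ± 0.18 (adjusted p = 1.08e-07), its ISP1 difference being 1.40 ± 0.13 without heat and -0.58 ± 0.13 with heat. PEX18 had a fitted value of -1.08 ± 0.20. Its YPD control mean is not above the background limit, so the ISP1 difference in unheated cells is a lower limit and the size of the interaction is not fixed. ANT1 (-0.61 ± 0.08), PEX29 (-0.57 ± 0.10), PEX30 (-0.57 ± 0.13), PCS60 (-0.46 ± 0.12), MDH3 (-0.41 ± 0.08) and PEX2 (-0.35 ± 0.08) were negative too. For PEX29, PEX30, PCS60, MDH3 and PEX2, ISP1 raised the gene in unheated cells and its difference in heated cells was not called. PEX31 (0.75 ± 0.13) and PEX25 (0.41 ± 0.08) were positive, both having fallen with ISP1 in unheated cells. PIP2 (-0.18 ± 0.12) and ADR1 (-0.36 ± 0.28) were not called. OAF1 was at 0.21 ± 0.07, a call lost in a fit of the 4 groups alone (adjusted p = 0.0689), median centring (0.0965) and quantile normalization (0.14). It was lost without control array 1 (0.0819), heat array 2 (0.0705), ISP1 array 2 (0.0595) or 3 (0.0739), or heat with ISP1 array 3 (0.0521) as well.

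**Figure D4:**
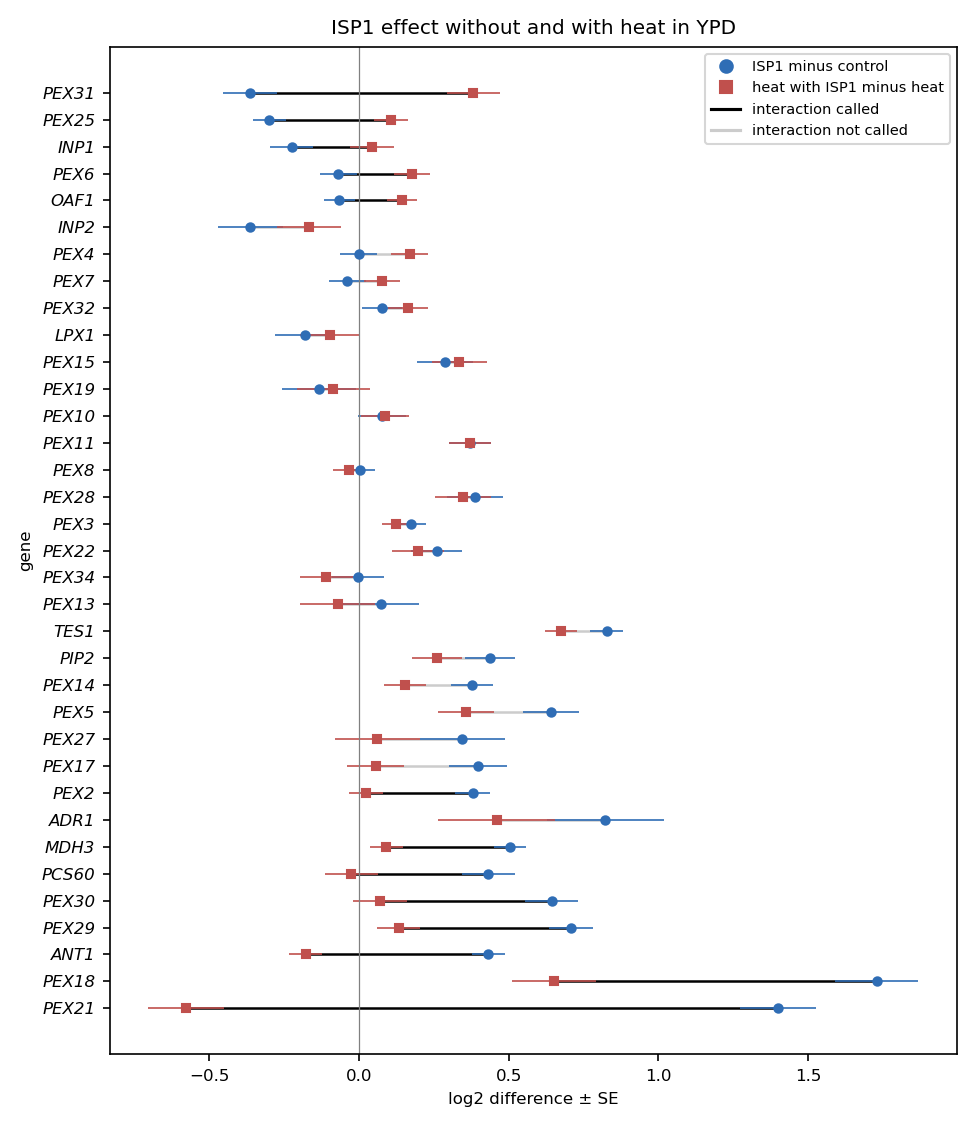
Log2 difference ± SE due to ISP1 in unheated cells (blue circles) and heated cells (red squares) in YPD for each of the 35 genes, sorted by the interaction, with a black line where limma called it and a grey line where it did not. PEX21 moves from 1.40 to -0.58, the longest line, and PEX31 from -0.36 to 0.38.

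Myristate against control in SC asked how the genes respond to a supplied fatty acid. Of the members 19 rose, 1 fell and 15 were not called, where 26.6% of all genes were called higher and 25.7% lower. The median was 0.18 for the members and -0.01 for all genes. PEX18, TES1, PIP2, PEX5, PEX29 and PEX30 rose most, and all 4 matrix enzymes rose. Rises of at least 2-fold were those of PEX18, TES1 and PIP2. These are 3 of 35, where 171 of all 5449 genes rose at least 2-fold. Of the 14 import genes 7 rose. No division gene other than PEX11 was called.

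Adding ISP1 to myristate changed none of the 35 members in limma's test, where 0.0184% of all genes, that is 1 of 5449, were called higher and 0% lower. At an unadjusted p under 0.05 there were 2 members, INP1 at -0.17 ± 0.07 and OAF1 at 0.12 ± 0.05. All 35 differences lay between -0.17 and 0.28, the highest being that of ADR1 (0.28 ± 0.20). PEX21 was at -0.14 ± 0.13 and PIP2 at 0.08 ± 0.08. The ISP1 difference in SC with myristate was not tested against that in YPD, since medium and myristate both differ.

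Myristate with ISP1 was also set against the SC control, whose arrays it shares with the myristate comparison. There 21 members rose and 2 fell, where 30.2% of all genes were called higher and 26.7% lower. The falls numbered 1 without SC control array 2 or 3 or myristate with ISP1 array 3, and 4 with array weights. PEX18 was at 2.84 ± 0.14, TES1 at 1.55 ± 0.05, PIP2 at 1.15 ± 0.08, PEX5 at 0.99 ± 0.09, PEX29 at 0.69 ± 0.07 and PEX30 at 0.67 ± 0.09. PEX31 fell by 0.51 ± 0.09. OAF1 rose by 0.49 ± 0.05. PEX13 was at -0.34 ± 0.13, a call lost without SC control array 2 (adjusted p = 0.0783) or 3 (0.0934), without myristate with ISP1 array 3 (0.222), or with only the arrays compared (0.111). ADR1 was at 0.46 ± 0.20 (adjusted p = 0.0525) and passed in 6 of its alternative settings, the lowest adjusted p being 0.00486, with only the arrays compared. One of these left out array 1 of myristate with ISP1 (0.0479). Without arrays 2 and 3 of myristate with ISP1, whose descriptions deviate, 16 members rose and 1 fell, the 1 array left being assumed to vary like the other groups.

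The control groups of the 2 media were compared to see where the members start from. In SC 7 were higher and 15 lower than in YPD, where 18.9% of all genes were called higher and 40.9% lower. The median was -0.14 for the members and -0.13 for all genes, which median centring moved to -0.07. With quantile normalization 10 members were higher and 13 lower. Of all 5449 genes 221 were called higher by at least 2-fold. Among the members ADR1 (1.76 ± 0.20) and PEX18 (1.01 ± 0.14) were. The PEX18 value is a lower limit because its YPD control mean is not above background. Next came PEX11 (0.37 ± 0.07), MDH3 (0.28 ± 0.05), PEX30 (0.26 ± 0.09) and PEX32 (0.21 ± 0.07). The PEX30 and PEX32 calls were lost without YPD control array 2 (adjusted p = 0.0647 and 0.0888), that of PEX30 also without SC control array 2 (0.0804). INP1 (-0.53 ± 0.07), PEX5 (-0.50 ± 0.09), OAF1 (-0.48 ± 0.05), INP2 (-0.47 ± 0.11), ANT1 (-0.44 ± 0.06) and PEX25 (-0.43 ± 0.06) were lower by the most. PIP2 was at -0.06 ± 0.08 (adjusted p = 0.564). RNA extracts of the media differed in the 3' minus 5' signal of SRB4 and actin given above, and little in that of SPT15. The part of RNA quality in these differences was not tested.

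Other genes of the pathway were counted as a frame. Of 20 genes of the peroxisomal matrix and its transporters outside the members, 14 rose and 3 fell with heat, where 39.8% of all genes rose and 40.9% fell. With ISP1 15 rose and 2 fell, where 27.9% of all genes rose and 33.2% fell. With myristate 16 rose and 0 fell, where 26.6% of all genes rose and 25.7% fell. Their medians were 0.93, 0.49 and 1.05. With myristate the thiolase gene POT1, whose product is a PTS2 protein, rose by 4.37 ± 0.25, the oxidase gene POX1 by 3.28 ± 0.21, the isocitrate dehydrogenase gene IDP3 by 2.21 ± 0.10 and the cystathionine lyase gene STR3 by 2.04 ± 0.31. With ISP1 STR3 rose by 1.48 ± 0.31, the nicotinamidase gene PNC1 by 1.42 ± 0.06, POX1 by 1.14 ± 0.21 and POT1 by 0.96 ± 0.25. The POT1 arrays overlapped there, at 7.3, 6.19 and 6.09 in YPD control and 7.97, 7.32 and 7.18 with ISP1, array 1 being the highest of each. With heat PNC1 rose by 2.32 ± 0.06, POT1 by 2.22 ± 0.25, POX1 by 1.75 ± 0.21 and MLS1, the malate synthase gene of the glyoxylate cycle, by 1.74 ± 0.10. The POX1 controls lay near the background limit, at 4.55, 5.62 and 5.20 in YPD and 4.67, 5.08 and 5.55 in SC. In each medium 2 of the 3 were above that limit, so the sizes of the POX1 rises are uncertain.

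Of 9 genes of organelle division and turnover outside the members, 4 rose and 3 fell with heat, 5 and 2 with ISP1, and 4 and 2 with myristate. Of all genes 39.8% rose and 40.9% fell with heat, 27.9% and 33.2% with ISP1, and 26.6% and 25.7% with myristate, so the heat counts are near the share over all genes. The autophagy kinase gene ATG1 rose by 1.48 ± 0.11, 1.35 ± 0.11 and 1.26 ± 0.11 in that order, and ATG36, the receptor gene for the breakdown of peroxisomes, by 1.22 ± 0.07, 0.86 ± 0.07 and 0.72 ± 0.07. FIS1, the fission adaptor gene that peroxisomes and mitochondria share, rose by 1.16 ± 0.06, 0.79 ± 0.06 and 0.77 ± 0.06. MDV1, which encodes an adaptor between Fis1 and the dynamin Dnm1, fell by 1.10 ± 0.07 with heat and 0.16 ± 0.07 with ISP1 and was at 0.08 ± 0.07 with myristate. DNM1 itself rose by 0.56 ± 0.05 with heat, 0.50 ± 0.05 with ISP1 and 0.34 ± 0.05 with myristate. MYO2, the gene of the myosin that carries peroxisomes, fell by 0.79 ± 0.07, 0.31 ± 0.07 and 0.43 ± 0.07 in the same order.

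Of 10 regulators of carbon source use, 6 rose and 2 fell with heat, 5 and 1 with ISP1, and 5 and 1 with myristate, beside the shares of all genes just given. CAT8, an activator of gluconeogenic genes, rose by 2.41 ± 0.12, 1.61 ± 0.12 and 1.29 ± 0.12. MIG1, the glucose repressor gene, fell by 0.87 ± 0.08, 0.27 ± 0.08 and 0.63 ± 0.08. SIP2, a subunit gene of the Snf1 kinase, rose by 1.24 ± 0.07, 0.53 ± 0.07 and 0.42 ± 0.07. The mean level of SNF1 itself went from 11.433 in YPD control to 11.16 with heat and 11.585 with ISP1. With heat GAL83 went from 10.607 to 11.253, REG1 from 10.09 to 10.695, SIP1 from 10.061 to 10.494 and GLC7 from 12.202 to 12.526. SNF4 went from 11.432 to 11.508 and OAF3 from 10.053 to 9.968. With ISP1 OAF3 was at 10.294. GAL83 went from 10.756 in SC control to 11.026 with myristate. Of 5 targets of Adr1 outside the peroxisome, 4 rose with heat, 1 with ISP1 and 2 with myristate, and none fell. Set against 39.8%, 27.9% and 26.6% of all genes, the single rise with ISP1 is not above the general share. ADY2, an acetate transporter gene, rose in all 3 (1.08 ± 0.17, 0.75 ± 0.17 and 0.66 ± 0.17). ACS1, an acetyl-CoA synthetase gene, rose with heat (1.10 ± 0.11) and myristate (0.61 ± 0.11). The mean level of ICL2 went from 9.536 in YPD control to 10.214 with heat and 9.522 with ISP1. ADH2, the alcohol dehydrogenase gene that glucose represses, rose by 0.44 ± 0.15 with heat and was at -0.18 ± 0.15 with ISP1 and 0.14 ± 0.15 with myristate.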

How the data were processed

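Total RNA of Saccharomyces cerevisiae was extracted with phenol and labelled with biotin, per the labels' protocols. The authors deposited 1 log2 signal per probe set and array. Per the submitters' processing notes these came from affy and RMA, with no other step stated in the sources used here. Since RMA equalizes the distributions of arrays, it would hide a shift common to most genes. Groups, replicate numbers and times were taken from the titles and descriptions. The members and lists were chosen with earlier results of these data known.

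Probe sets (10928) were named through the platform annotation and RefSeq's table of R64 genes, used for names alone. Those of 1 S. cerevisiae gene numbered 5498. The probe set with the highest mean was kept per gene, leaving 5449 genes. The 95th percentile of 1746 other-species probe sets, 4.84, was the background limit. limma 3.58.1 in R 4.3.3 fitted 1 group-means model, with Benjamini-Hochberg adjustment over 5449 genes, and was tested on simulated data. No exact test was made, because 3 against 3 arrays could reach no p below 0.1. Members called with the 6 largest rises and falls per comparison, the 3 transcription factors, paralogues and the 4 largest changes per list were the first to be named. Others were added so that every member's role is described. A promoter motif search was planned and not run, as no sequence was used here.

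Whether replicate numbers, which come from the titles, pair the arrays was checked by correlating deviations from the group means. Each pair correlated above 0.1 in 4 comparisons. The range was 0.23 to 0.53 for ISP1 and its control, 0.172 to 0.433 for ISP1 added to heat, 0.132 to 0.35 for heat added to ISP1 and 0.322 to 0.626 for myristate and its control. No replicate pair shared over 0.404% identical values, so each array was counted once.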

Additional observations from a re-analysis of the deposited data

Results flagged for a closer look

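The ISP1 difference was not the same with and without heat for 13 of 35 members, by limma's interaction test over 5449 genes. Of all genes 21.8% were called positive and 19.1% negative, so the members' count is near the share over all genes. The interaction was -1.98 for PEX21, -1.08 for PEX18, -0.61 for ANT1, -0.57 for PEX29 and -0.57 for PEX30. It was -0.46 for PCS60, -0.41 for MDH3 and -0.35 for PEX2. Positive values were those of OAF1 (0.21), PEX6 (0.24), INP1 (0.27), PEX25 (0.41) and PEX31 (0.75). The PEX18 controls in YPD had a mean not above the background limit, so the size of its interaction is not fixed. The calls of OAF1, PEX6 and INP1 were each lost without 1 of several arrays, with adjusted p of up to 0.0819, 0.0898 and 0.123. The other 10 held under every alternative setting.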

How the results depend on the processing

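Alternatives used the compared groups' arrays only, the replicate number as a block, genes above background only, 2 other scalings over yeast genes (quantile normalization and median centring), limma's trended robust prior, weights per array, the average over probe sets of 1 gene, or all arrays but 1. No total of members called, both directions together, moved by over 1.5 times. Counts in 1 direction did move by more, for falls with ISP1 (4 to 2), rises with ISP1 added to heat (11 to 7) and its falls (2 to 1), positive interactions (5 to 2), falls with myristate (1 to 2) and falls with myristate and ISP1 (2 to 1 or 4). Without 1 array the count ran from 25 to 26 for heat, 21 to 24 for ISP1, 9 to 13 for ISP1 added to heat, 19 to 24 for heat added to ISP1, 10 to 14 for the interaction, 15 to 19 for myristate, 20 to 23 for myristate with ISP1 against control, 17 to 21 for the media, and was 0 for ISP1 added to myristate. With the replicate block the counts were 28, 24, 15, 21, 13, 21, 25, 22 and 0 in that order. Over all genes, array weights called 2960 with ISP1 added to heat, beside 1784, and 43 with ISP1 added to myristate, beside 1. In the media comparison PIP2, not called, turned from -0.06 to 0.008 with quantile normalization and 0.006 with median centring, and without 1 array it ran from -0.099 to 0.001, the latter without SC control array 3. Among 2553 recomputed values of single members 2364 kept their direction and side of the threshold, 176 lost their call, 10 gained one and 3 turned. These values cover PIP2, OAF1 and ADR1 in every comparison, and other members only where they were called without any alternative setting. Calls gained by other members are therefore left out of these numbers and enter only the counts of members called. In the 4 paired comparisons the replicate block ended the call of PEX17 with heat added to ISP1, and ended no other member's call. Among the members named there it added that of ADR1 with ISP1 added to heat. The cause of lost calls was not tested beyond the fewer arrays in the fits that leave some out.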

Other observations

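Across the 7 groups, the members differed in where they were highest. Of the 35, 13 had their highest group mean with heat and ISP1 together, and 15 had their lowest in SC control. The same counts were not made over all genes. Of all genes 40.9% were called lower in SC control than in YPD control, so low levels there were common beyond the members. The range of group means had a median of 0.835 on the log2 scale over the members and was at least 1 for 14 of them. Neither was worked out over all genes, so whether the members stand out is not known. These counts describe the levels of probe sets within each gene and were not tested.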
